A study of Mus musculus and Homo sapiens with 65 samples.

Results

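The genes described here are the heat shock and DnaJ chaperone genes of the mouse late 2-cell embryo. They were chosen by name alone: every gene of the RNA-seq tables whose symbol begins with Hspa to Hspe, Hsph, Hsp90 or Dnaj was taken, without the organelle chaperones Hspa5, Hspa9 and Hsp90b1 and without symbols marked as pseudogenes. The name pattern matched 82 genes. Leaving out 3 organelle chaperones and 8 pseudogenes left 71 members of the 32287 genes measured. By role they were 2 HSP90 genes, 12 HSP70 and HSP110 genes, both genes of the mitochondrial chaperonin, 8 genes named as small heat shock proteins, 4, 13 and 28 DnaJ genes of types A, B and C, and 2 other genes, Hspbp1 and Hspbap1.

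Chaperones bind unfolded or partly folded proteins and help them to fold, to assemble or to be degraded. HSP70 proteins hold and release short stretches of a client in a cycle driven by ATP. DnaJ proteins bring clients to HSP70 and start its ATP hydrolysis, nucleotide exchange factors such as HSP110 and the BAG proteins end the cycle, and HSP90 acts later on clients such as kinases and receptors. Many of these genes are switched on by heat shock factor HSF1, which binds inverted repeats of a short unit in promoters, the heat shock element. In the mouse, transcription of HSP70 genes is among the early events when the embryo begins to transcribe its own genome. At the 2-cell stage this major activation of the genome runs beside the loss of transcripts stored in the oocyte.

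Of the 65 samples of the series, 9 RNA-seq libraries were analysed here. All were of 2-cell embryos cultured in G1 plus medium to the late 2-cell stage, and they form 4 groups. The 3 wild-type libraries were of embryos with no treatment named in the labels. The 2 alpha-amanitin libraries were of embryos treated with an inhibitor of RNA polymerase II, while dose, start and route of treatment were not given in the sources used here. Injected embryos received fluorescein-tagged morpholinos, antisense oligonucleotides that act on RNA without cutting it, as zygotes at 0.5 days post coitum. In 2 libraries these targeted Kdm5a and Kdm5b, which encode demethylases of histone H3 lysine 4, and in 2 libraries they were mismatch controls for both. For strain, embryos per library and separate collections nothing is given in the labels, so p-values measure the spread between libraries, which may be technical.

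Levels are FPKM, the fragments mapped to a gene divided by its transcript length and by all mapped fragments of the library, so each level is relative to the rest of its library. In bulk embryos fewer cells and less RNA per cell cannot be told apart. Read depth is unknown, since the tables hold no counts, and the half-width of the deposited FPKM bounds gives a relative precision. Its median over 38 members was 16.8% to 17.7% of the FPKM in the wild type, 20.4% and 21.9% after alpha-amanitin and 10.4% to 13.5% in the 4 injected libraries. The summed FPKM of 6 2-cell embryo markers was 186 to 232 in the wild-type libraries and 3.02 to 4.84 with alpha-amanitin. The sum of 6 stored oocyte transcripts was 468 to 596 and 909 to 993. Marker sums stayed at or under 3.43 for cumulus cells, 5.96 for sperm and 7.99 for blood in every library. The oviduct list, of which Krt8 and Epcam are also embryonic, summed to 22.9 to 65 in the wild type and to 1.38 at most with alpha-amanitin. Kdm5a was at 12.8 and 9.44 FPKM after mismatch injection and at 19.5 and 15.3 after targeting injection. Kdm5b was at 55.3 and 39.6 against 38.1 and 27.6. Neither mRNA passed the test (adjusted p = 1 for both, limma), and the level of the mRNA does not measure a block of its translation.

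The members together took 0.35%, 0.5% and 0.36% of the summed FPKM in the wild type, 0.318% and 0.307% after alpha-amanitin, 0.521% and 0.404% after mismatch injection and 0.481% and 0.443% after injection against Kdm5a and Kdm5b. Dnajc21, a J protein of ribosome assembly, had the highest level of any member in each of the 9 libraries, at 157, 218 and 112 FPKM in the wild type. In the wild type the next members by mean were Hsp90ab1 (86 ± 20.6 FPKM, SD, n = 3), Dnaja2 (82.8 ± 12.3), Dnajb9 (68.5 ± 13.3) and Hsph1 (47.7 ± 20.5). Neighbours in this order overlapped over the libraries, except that every wild-type value of Dnajc21 exceeded every one of Hsp90ab1. With alpha-amanitin the order below Dnajc21 was Dnajc13 (73.5 ± 25.3, n = 2), Dnaja2 (68.9 ± 4.88), Dnajb4 (48.5 ± 3.83) and Hspa4l (20.6 ± 3.85). Only Dnajc21 and Dnaja2 were among the 5 highest means of all 4 groups.

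**Figure D1:**
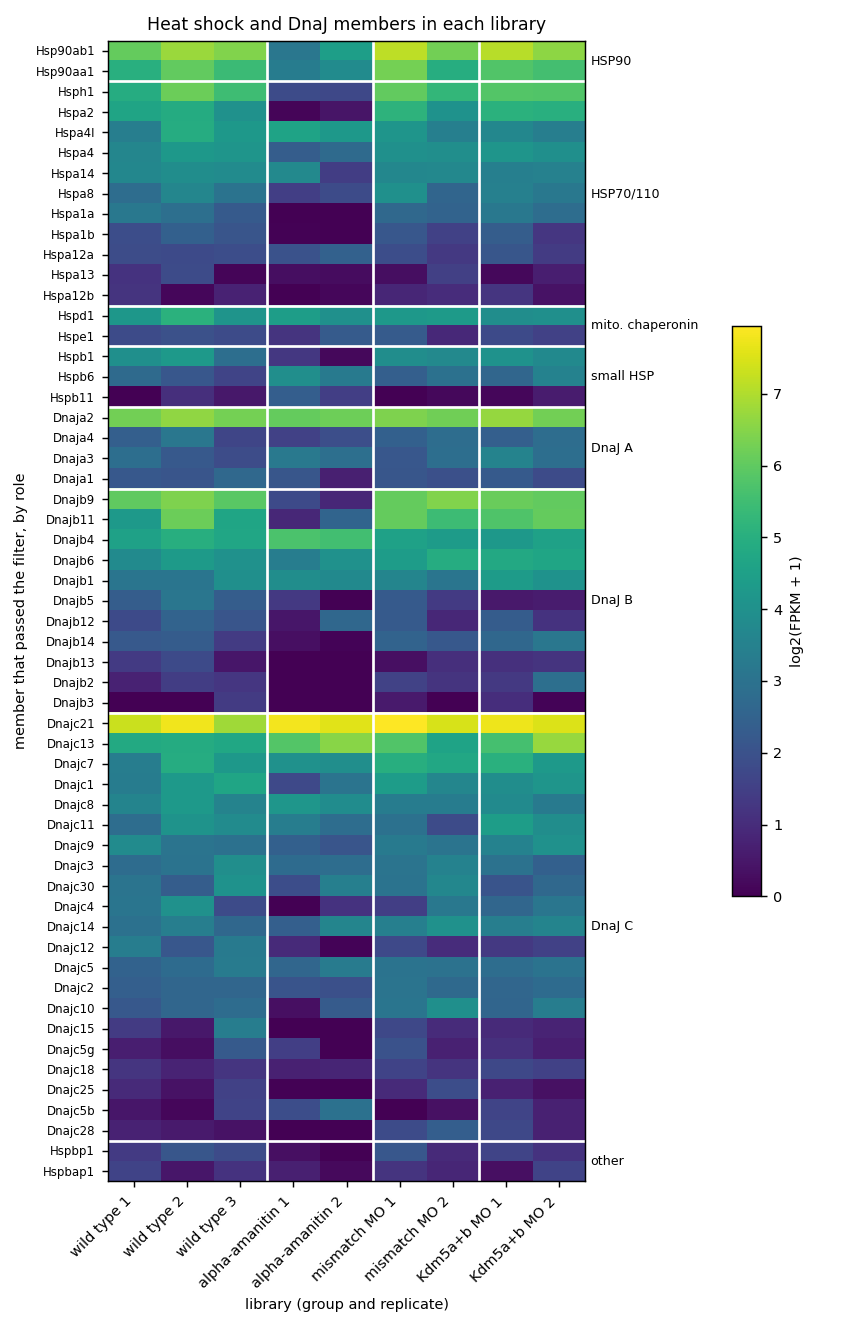
Level of the 56 members that passed the filter (rows, by role and then by wild-type mean) in the 9 libraries (columns), as log2(FPKM + 1) on the colour scale. Hsp90ab1, Hsph1, Hspa2, Dnajb9 and Dnajb11 are each darker in both alpha-amanitin columns than in any other column, while Dnajc21 and Dnaja2 are bright in every column.

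Blocking RNA polymerase II asks which mRNAs of the late 2-cell embryo depend on transcription. Of the 56 members that reached 1 FPKM in 2 libraries or more, 17 fell and 2 rose with alpha-amanitin against the wild type (limma on log2(FPKM + 1), two-sided, Benjamini-Hochberg adjusted p under 0.05 over 13137 genes). That is 30.4% and 3.57% of the members tested, beside 25.1% and 4.31% of all genes tested. Both shares were near those of the genome, so the members as a set did not stand apart. Their median log2 difference was -0.64, beside -0.56 over all genes tested. Every alpha-amanitin library lay below every wild-type library in 26 members and above in 7, beside 41.1% and 13.4% of all genes tested. Scaling all libraries to the same distribution moved the median of all genes to 0.17, and the split became 8 members lower and 7 higher, beside 13.7% and 13.1% of all genes. For single genes, the lost calls given below are mostly those from leaving out a library. Calls lost under other settings are listed at the end.

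By role, both HSP90 genes fell, as did 6 of 11 tested HSP70 and HSP110 genes and 4 of 11 type B DnaJ genes. In contrast 3 of 21 type C genes fell, none of 4 type A genes and neither chaperonin gene. Of 6 genes counted as J proteins of the endoplasmic reticulum, a set that does not include the membrane proteins Dnajb12 and Dnajb14, Dnajb9, Dnajb11 and Dnajc1 fell and Dnajc3, Dnajc10 and Dnajc25 did not pass the test. The 7 tested mitochondrial members (Hspd1, Hspe1, Dnaja3, Dnajc11, Dnajc15, Dnajc28 and Dnajc30) gave no call. These are counts of named genes, and no difference between roles was tested.

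The 2 cytosolic HSP90 genes fell together. Hsp90ab1 encodes the constitutive isoform HSP90 beta and lies on chromosome 17 at 45567775 to 45573271. It was at 65.5, 107 and 85.9 FPKM in the wild type and at 7.79 and 20.7 with alpha-amanitin, while the 4 injected libraries held 75.3 to 143. Both treated libraries lay under all 7 others. The mean was 6.04-fold lower than in the wild type, a log2 difference of -2.63 (SE 0.42, adjusted p = 0.000915, limma). Hsp90aa1, the stress-inducible isoform HSP90 alpha, was at 31, 65.2 and 41.3 FPKM in the wild type and at 9.12 and 13.2 with alpha-amanitin. Its groups did not overlap either, and its mean was 4.1-fold lower (log2 -1.90, SE 0.43, adjusted p = 0.00712). This call was lost without a filter on the level and without alpha-amanitin replicate 1.

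Among the HSP70 genes that fell, the lowest treated levels were those of the heat-inducible pair and of Hspa2. Hspa1a and Hspa1b are single-exon genes that lie near each other on the minus strand of chromosome 17, at 34969190 to 34972156 and 34956436 to 34959238. Hspa1a was at 8.08, 6.44 and 3.73 FPKM in the wild type, was listed at 0 in each alpha-amanitin library, and was at 4.74 to 8.13 in the 4 injected libraries. Dnajb2 and Dnajc28 were also listed at 0 in both treated libraries and above 0 in all 7 others. These 2 were low in the wild type, at 0.695 to 1.7 and 0.309 to 0.677 FPKM, and did not pass the test (adjusted p = 0.138 and 0.392, limma). The share of all genes with this pattern is not given here. Hspa1b was at 2.69, 4.36 and 3.32 FPKM in the wild type and at 0.0237 and 0 with alpha-amanitin. On the log2(FPKM + 1) scale, where a gene at 0 has a difference set by the added 1, Hspa1a differed by -2.77 (SE 0.45, adjusted p = 0.00106) and Hspa1b by -2.12 (SE 0.50, adjusted p = 0.00897). The Hspa1b call was lost after scaling all libraries to the same distribution and without alpha-amanitin replicate 2.

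Hspa2, an HSP70 gene best known for its role in male germ cells, had the second-largest fall of all members on the log2(FPKM + 1) scale. It was at 24, 28.5 and 15.3 FPKM in the wild type, at 0.0722 and 0.354 with alpha-amanitin and at 15.7 to 34.3 in the injected libraries. The treated libraries thus held almost none of it, and the mean was 106-fold lower (log2 -4.25, SE 0.42, adjusted p = 4e-05). Hsph1 encodes HSP110, a nucleotide exchange factor of HSP70. It was at 29.4, 69.9 and 43.7 FPKM in the wild type and at 2.55 and 2.32 with alpha-amanitin, with 37.7 to 65 in the injected libraries. The treated pair was far below the other libraries, and the mean was 19.6-fold lower (log2 -3.74, SE 0.39, adjusted p = 5.2e-05).

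The constitutive HSP70 gene Hspa8 and the HSP110 relative Hspa4 fell less. Hspa8 was at 6.16, 11.4 and 7.16 FPKM in the wild type and at 1.75 and 2.52 with alpha-amanitin. Its mean was 3.86-fold lower (log2 -1.53, SE 0.49, adjusted p = 0.0379). The call was lost without alpha-amanitin replicate 1 or 2 and without wild-type replicate 2 or 3 (adjusted p = 0.0992 and 0.0659 for the latter, limma). Counting every kind of alternative it was lost under 9 of 15, among them scaling all libraries to the same distribution. Hspa4 went from 11.4, 17.7 and 16.6 FPKM to 4.02 and 5.67, a mean 3.14-fold lower (log2 -1.47, SE 0.35, adjusted p = 0.00898, limma). Hspa4 lost its call after scaling all libraries to the same distribution (adjusted p = 0.235, limma) and without alpha-amanitin replicate 1. Its relative Hspa4l did not follow: it was at 9.63, 29.3 and 17.8 FPKM in the wild type and at 23.3 and 17.8 with alpha-amanitin, inside the wild-type range (log2 0.23, SE 0.45, adjusted p = 0.729). The other HSP70 members tested (Hspa12a, Hspa12b, Hspa13 and Hspa14) did not pass the test.

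**Figure D2:**
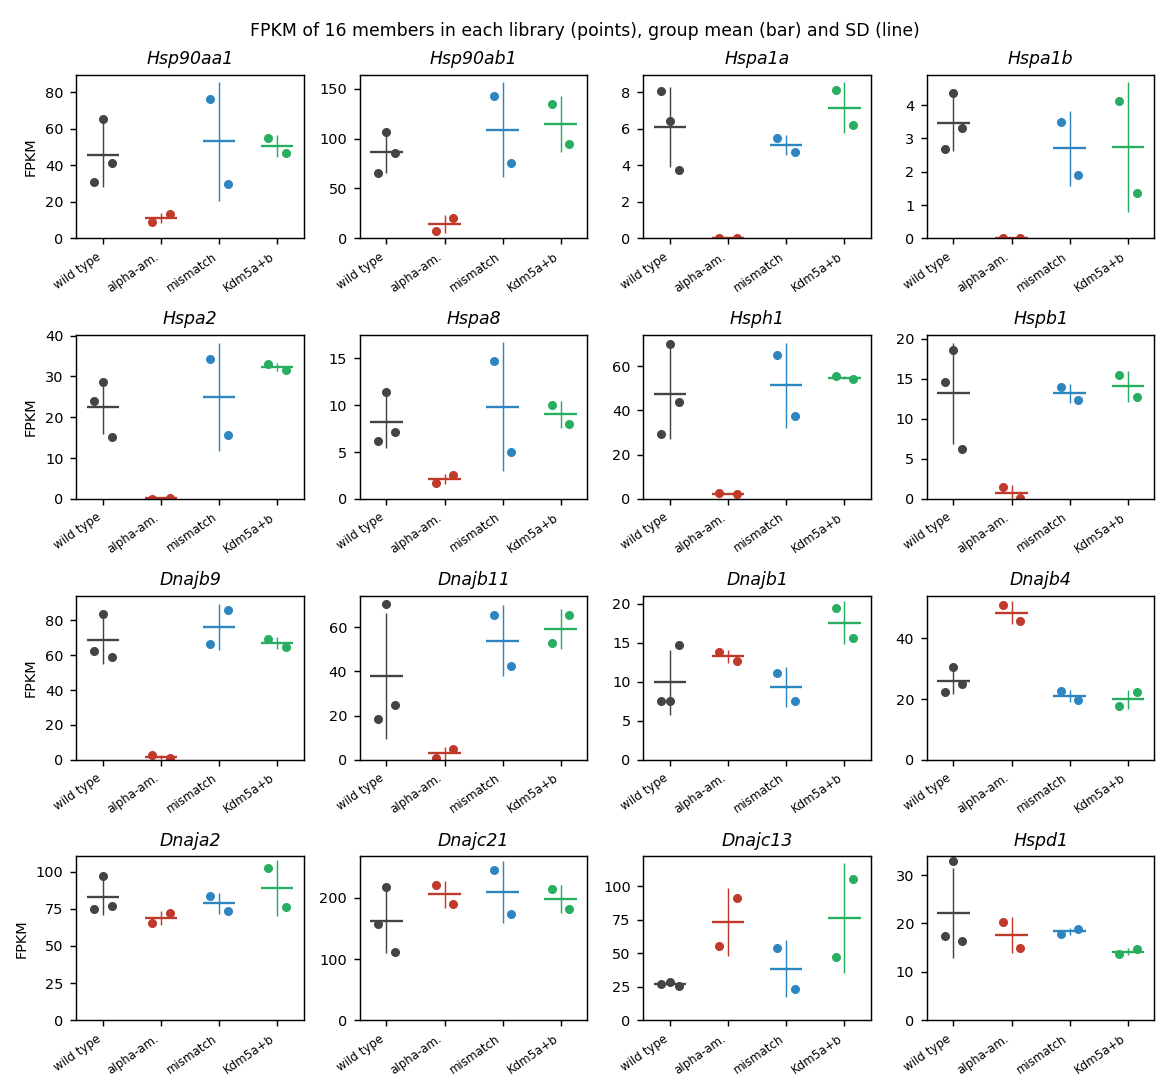
FPKM (linear axis from 0) of 16 members in each library by group, with each library as a point, the group mean as a bar and the SD as a line. Both alpha-amanitin points lie below all other points for Hsp90aa1, Hsp90ab1, Hspa1a, Hspa1b, Hspa2, Hspa8, Hsph1, Hspb1, Dnajb9 and Dnajb11, and above all other points for Dnajb4. They also lie below all others for Dnaja2, by a small margin and without a call.

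Of the small heat shock proteins, ATP-independent holders of unfolded proteins, 3 of 8 passed the filter. Hspb1, which encodes HSP25, was at 14.6, 18.6 and 6.3 FPKM in the wild type and at 1.46 and 0.114 with alpha-amanitin. It was at 12.4 to 15.4 in the injected libraries, so the treated pair stood below every other library. Its mean was 16.7-fold lower (log2 -2.98, SE 0.51, adjusted p = 0.00147). The other 2 pointed the other way without passing the test. Hspb6, a small heat shock protein of muscle, was at 5.65, 3.42 and 2.12 FPKM in the wild type and at 14.2 and 8.55 with alpha-amanitin (log2 1.42, SE 0.49, adjusted p = 0.0523). Hspb11, which despite its name belongs to a complex of cilia, was at 0, 1.1 and 0.439 FPKM against 4.23 and 1.78 (log2 1.40, SE 0.49, adjusted p = 0.0522).

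Type B DnaJ genes held both the largest fall on the log2(FPKM + 1) scale and a rise. Dnajb9 encodes ERdj4, a J protein of the endoplasmic reticulum that is induced when unfolded proteins collect there. It was at 62.6, 83.7 and 59.2 FPKM in the wild type and at 2.43 and 0.836 with alpha-amanitin, with 64.6 to 85.7 in the injected libraries. Both treated libraries lay far below all 7 others, and the mean was 42-fold lower than in the wild type (log2 -4.78, SE 0.33, adjusted p = 5.4e-06). Dnajb11, the ERdj3 partner of the HSP70 protein BiP, was at 18.4, 70.8 and 24.7 FPKM in the wild type and at 0.829 and 4.89 with alpha-amanitin. Wild-type replicate 2 was high, but the groups did not overlap, and the mean was 13.3-fold lower (log2 -3.33, SE 0.60, adjusted p = 0.00191).

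The remaining falls of type B were in weakly expressed genes. Dnajb14, a J protein of the endoplasmic reticulum membrane that is not in the set of 6 above, was at 3.68, 3.93 and 1.6 FPKM in the wild type and at 0.247 and 0.063 with alpha-amanitin (log2 -1.77, SE 0.48, adjusted p = 0.0179). Dnajb5 was at 4.1, 7.61 and 4.04 FPKM against 1.49 and 0 (log2 -1.94, SE 0.55, adjusted p = 0.0231). The Dnajb14 call was lost without alpha-amanitin replicate 1 or 2, and the Dnajb5 call without alpha-amanitin replicate 2 or wild-type replicate 2 (adjusted p = 0.0611 for the latter, limma). Both calls were also lost after scaling all libraries to the same distribution.

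Dnajb4, a close relative of Dnajb1, rose. It was at 22.2, 30.7 and 24.8 FPKM in the wild type, at 51.2 and 45.8 with alpha-amanitin and at 17.7 to 22.5 in the injected libraries. Both treated libraries exceeded all others, and the mean was 1.87-fold higher (log2 0.89, SE 0.28, adjusted p = 0.0372), a call lost without either treated library or without wild-type replicate 1 or 3 (adjusted p = 0.0833 to 0.148). Against the injected libraries the log2 difference was 1.20 (adjusted p = 0.00659). Dnajb1 itself, which encodes HSP40, a main partner of cytosolic HSP70 in the heat shock response, did not pass the test: it was at 7.52, 7.52 and 14.7 FPKM in the wild type and at 13.8 and 12.7 with alpha-amanitin (log2 0.45, SE 0.39, adjusted p = 0.417). The Dnajb1 level stayed inside the wild-type range in the libraries in which Hspa1a was listed at 0.

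None of the 4 type A DnaJ genes, the J proteins closest in layout to the bacterial DnaJ, passed the test. Dnaja2 was at 74.6, 96.9 and 77 FPKM in the wild type and at 65.5 and 72.4 with alpha-amanitin. The treated libraries were slightly below the wild-type ones (log2 -0.25, SE 0.24, adjusted p = 0.453). Dnaja1 was at 3.59, 3.24 and 5.41 FPKM against 3.32 and 0.609, with 1 treated library inside the wild-type range (log2 -0.92, SE 0.52, adjusted p = 0.214). Dnaja3, the mitochondrial member, had a log2 difference of 0.74 and Dnaja4 of -0.68.

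Type C members share only the J domain and act in many places, from ribosome assembly to membrane traffic. Dnajc12 was at 9.34, 3.43 and 8.77 FPKM in the wild type and at 0.929 and 0.0569 with alpha-amanitin, a mean 14.6-fold lower (log2 -2.42, SE 0.55, adjusted p = 0.00738, and 0.0742 without alpha-amanitin replicate 2). Dnajc4, with 7.53, 15.3 and 2.49 FPKM against 0 and 1.24, had a log2 difference of -2.39 (SE 0.73, adjusted p = 0.0315). Dnajc1, an endoplasmic reticulum J protein, fell from 9.07, 18.2 and 24.5 FPKM to 2.39 and 7.35 (log2 -1.68, SE 0.51, adjusted p = 0.0312). The groups overlapped in none of these 3 genes. The Dnajc4 call was lost without alpha-amanitin replicate 1 (adjusted p = 0.191) or wild-type replicate 1 or 2 (0.0687 and 0.0922). The Dnajc1 call was lost without alpha-amanitin replicate 1 (0.231) or wild-type replicate 2 or 3 (0.0751 and 0.0976).

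Dnajc13, which encodes RME-8, a J protein of endosomes, rose. It was at 27.2, 28.5 and 25.6 FPKM in the wild type and at 55.6 and 91.4 with alpha-amanitin, a mean 2.71-fold higher (log2 1.37, SE 0.42, adjusted p = 0.033). The call was lost without alpha-amanitin replicate 2 (adjusted p = 0.212) and without any 1 wild-type library (0.0603 to 0.0782). The injected libraries overlapped the treated ones, with 53.7 and 23.5 FPKM after mismatch injection and 47.1 and 105 after targeting injection, and against them the log2 difference was 0.50 (adjusted p = 0.381). Dnajc21 was at 221 and 190.1 FPKM with alpha-amanitin, 1 of them above and 1 within its wild-type range (log2 0.39, SE 0.28, adjusted p = 0.331). Dnajc5b, a relative of the cysteine string protein of secretory vesicles, was at 0.406, 0.114 and 2.05 FPKM against 2.67 and 6.82 and narrowly missed the threshold (log2 1.67, SE 0.58, adjusted p = 0.0532).

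Among the type C genes that did not pass the test, several lay below the wild type in both treated libraries. Dnajc9, a J protein that also binds histones, was at 13.3, 7.41 and 6.81 FPKM against 4.37 and 3.26 (log2 -1.03, SE 0.41, adjusted p = 0.0825). Dnajc15, a mitochondrial J protein, was at 1.6, 0.411 and 9.25 FPKM against 0.00256 and 0.00171, and its wild-type values were far apart (log2 -1.74, SE 0.73, adjusted p = 0.0977). Dnajc3, which like Dnajb9 serves BiP, was at 5.95, 7.11 and 14.3 FPKM against 5.86 and 6.13 (log2 -0.44, SE 0.45). The log2 differences of all 6 genes counted as J proteins of the endoplasmic reticulum were below 0, although not all passed the test. Differences below 0 were common, with 43 of the 56 members tested and 65.8% of all genes tested. Dnajc8, of the splicing machinery, and Dnajc5, the cysteine string protein, had log2 differences of 0.20 and 0.10. Dnajc2, Dnajc7 and Dnajc14 differed by -0.54, -0.20 and 0.01.

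The mitochondrial chaperonin, the barrel Hspd1 (HSP60) and its lid Hspe1 (HSP10), did not pass the test. Hspd1 was at 17.4, 32.8 and 16.3 FPKM in the wild type and at 20.3 and 15 with alpha-amanitin (log2 -0.26, SE 0.36, adjusted p = 0.615). Hspe1 was at 2.53, 2.95 and 2.51 FPKM against 1.3 and 3.9 (log2 -0.12, SE 0.55, adjusted p = 0.883). The groups overlapped in both genes, and the sign of either difference changed with the scaling of the libraries or with the reference group. Of the remaining 2 members, Hspbp1, an exchange factor of HSP70, fell from 1.54, 3.4 and 2.51 FPKM to 0.248 and 0 (log2 -1.61, SE 0.51, adjusted p = 0.0385). That call was lost without alpha-amanitin replicate 1 or 2 (0.103 and 0.181) or wild-type replicate 2 or 3 (0.0878 and 0.0769). Hspbap1 did not pass the test.

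Measured against the 4 injected libraries in place of the wild type, 18 members fell and 3 rose, beside 25.1% and 3.45% of all genes tested. Of the 17 members lower against the wild type, 13 were also lower against the injected libraries. Dnajb5, Dnajc4, Dnajc12 and Hspbp1 were not, and Dnajb2, Dnajb6, Dnajc9, Dnajc10 and Dnajc28 were lower against the injected libraries only. Dnajb4 was higher against both references. The 2 counts share the alpha-amanitin libraries.

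**Figure D3:**
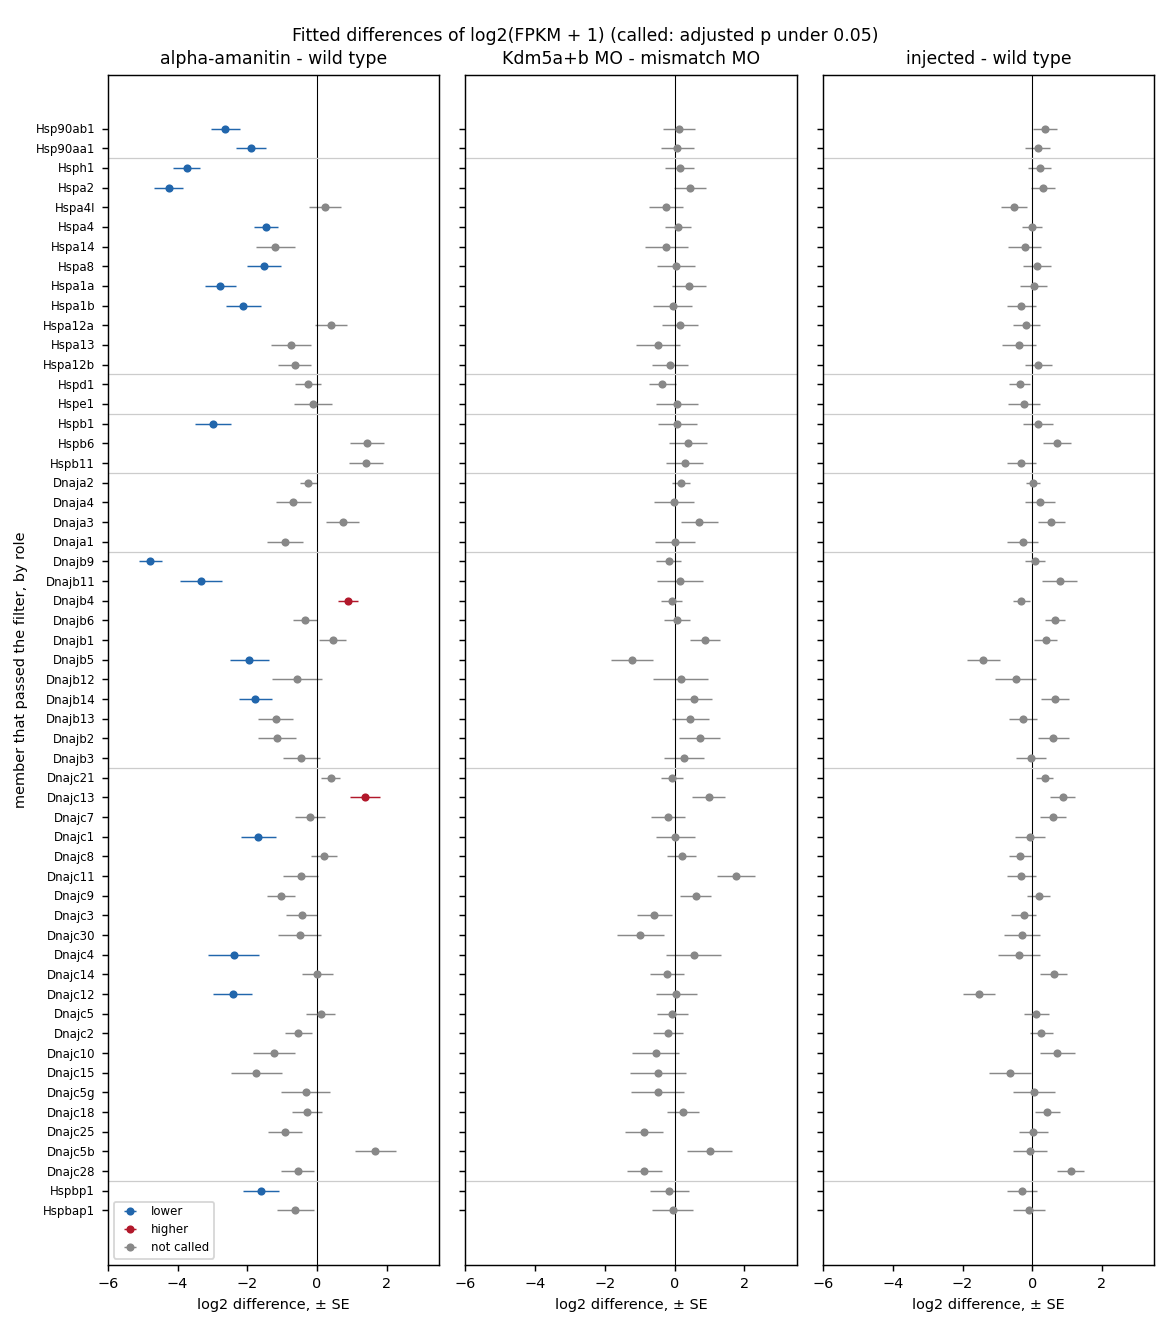
Fitted difference of log2(FPKM + 1) with its SE (horizontal axis) for the 56 members that passed the filter, in the 3 comparisons. Blue points fell, red points rose and grey points did not pass the test. With alpha-amanitin 17 points are blue and 2 are red, and in the other 2 panels all points are grey.

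Several members share sequence with other annotated genes, and the deposited tables do not show how such reads were assigned. In the GENCODE M21 models 66.3% of all 50-base stretches of Hspa1a and 62.3% of those of Hspa1b also occur in another gene, mostly in each other, so the split between the 2 is uncertain. Gm20481, which overlaps Hspa1a on the opposite strand, was at 0.334, 0.000876 and 0.0308 FPKM in the wild type and was listed at 0 in each alpha-amanitin library. In the injected libraries it was at 4.04, 7.24, 1.92 and 2.82 FPKM. The labels do not say whether the library kit marked strand, and reads of the 2 genes cannot be told apart. Hspb1 shared 50.1% of its stretches with other genes (48.8% with Hsp25-ps1), Hspd1 42.1% (38% with Hspd1-ps3) and Dnaja4 42.7% (with Wdr61). The levels of these members carry the same limit.

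Processed pseudogenes, intron-less copies of an mRNA, carried as much FPKM as their source gene or more for some members. Gm15542 and Gm7816 share 10% and 8.88% of the 50-base stretches of Dnaja1. Gm15542 was at 52.9, 69.3 and 37 FPKM in the wild type, well above Dnaja1, and at 4.29 and 4.94 with alpha-amanitin. Gm7816 was at 37.6, 61.9 and 30.6 FPKM against 2.02 and 8.66. Both copies fell (log2 -3.23 and -2.98, adjusted p = 7.46e-05 and 0.00121), although Dnaja1 did not pass the test. Smu1, which overlaps Dnaja1 on the opposite strand and holds 6.37% of its stretches, fell as well (log2 -1.43, adjusted p = 0.0122).

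The same held for Hspa8 and in part for Hsp90aa1. Gm15459, with 34.6% of the stretches of Hspa8, was at 22.9, 22.2 and 16.1 FPKM in the wild type and at 2.43 and 2.26 with alpha-amanitin (log2 -2.66, adjusted p = 0.000187). It lay above Hspa8 in the 7 libraries without alpha-amanitin. Gm12346, with 41.8% of the stretches of Hsp90aa1, was at 27.2, 51 and 30.5 FPKM against 11.9 and 12.1 (log2 -1.47, adjusted p = 0.00763), near the level of Hsp90aa1. Gm6568, a copy of part of Dnajb9, was at 22.8, 19.5 and 21.3 FPKM against 10.5 and 0.439 (log2 -2.45, adjusted p = 0.0204). The copies drawn for these 4 genes fell with alpha-amanitin as did Hspa8, Hsp90aa1 and Dnajb9 themselves. How many reads of a gene stand in the row of its copy cannot be told from the tables.

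**Figure D4:**
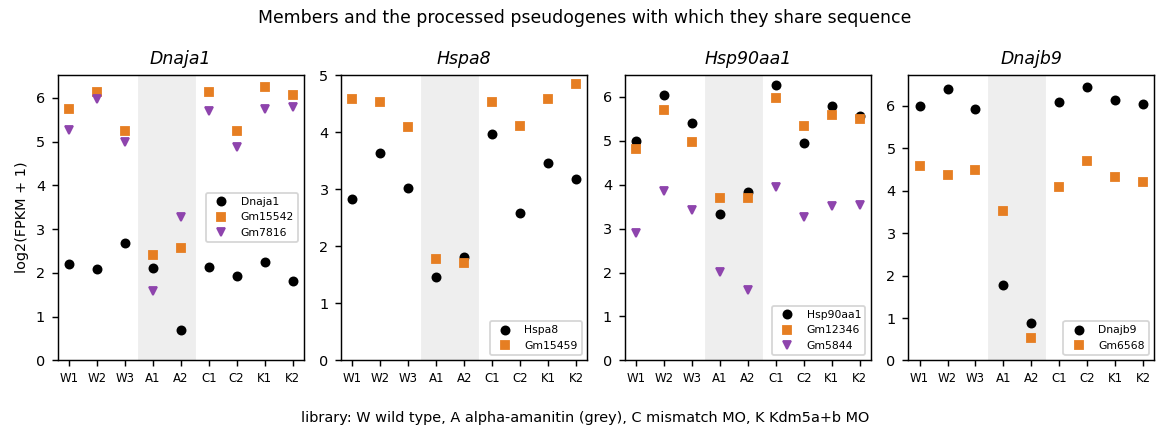
Level as log2(FPKM + 1) of Dnaja1, Hspa8, Hsp90aa1 and Dnajb9 (black circles) and of processed pseudogenes that share sequence with them (coloured marks) in the 9 libraries, with alpha-amanitin shaded. Gm15542 and Gm7816 lie above Dnaja1 in the unshaded libraries and drop in the shaded ones, where Dnaja1 is near its other values in 1 of 2 libraries.

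Promoter windows of RefSeq (GRCm38.p6, 250 bases before to 50 after a gene's start) were searched for the heat shock element because HSF1 acts through it. A core of 2 inverted units was written GAANNTTC or TTCNNGAA, and these spellings read the same on both strands. At least 1 core occurred in 18 of 75 windows of the 58 members with a window (24%), beside 15.1% of all 32851 windows. A run of 3 units occurred in 6 windows (8%) of 4 members, Dnajb6, Hspd1, Hspe1 and Hsph1, beside 0.603% of all windows. These windows are not independent, since those of Dnajb6 and those of Hsph1 overlap, and Hspd1 and Hspe1 share an element. Counted by gene, 27.6% of the 58 members held a core beside 17% of all genes, and 6.9% held 3 units beside 0.662%. By outcome with alpha-amanitin, 4 of 13 falling members with a window held a core (Hspa1a, Hspa1b, Hspb1 and Hsph1), as did 1 of 2 rising members (Dnajb4) and 8 of 30 that did not pass the test. The falling members Hsp90aa1, Hsp90ab1, Hspa8 and Dnajc12 had no window and were not searched. A match describes letters only, and is neither a bound site nor a cause. The pieces below show the element, in capitals, in members that fell, that rose and that did not pass the test, each 30 bases long and written in the direction of the gene.
Hspa1a, chr17:34972242-34972271, minus strand: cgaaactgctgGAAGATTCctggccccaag
Hspb1, chr5:135887791-135887820, plus strand: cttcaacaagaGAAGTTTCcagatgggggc
Hspb1, chr5:135887811-135887840, plus strand: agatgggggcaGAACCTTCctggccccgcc
Hsph1, chr5:149636351-149636380, minus strand: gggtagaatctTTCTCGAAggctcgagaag
Hsph1, chr5:149636280-149636309, minus strand: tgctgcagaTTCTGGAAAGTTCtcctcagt
Dnajb4, chr3:152193841-152193870, minus strand: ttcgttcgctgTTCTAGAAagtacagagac
Dnajb6, chr5:29735843-29735872, plus strand: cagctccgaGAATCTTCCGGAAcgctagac
Hspe1, chr1:55088053-55088082, plus strand: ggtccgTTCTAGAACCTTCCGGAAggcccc

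The Hspe1 piece is also the Hspd1 promoter read from the other strand, since the chaperonin genes are transcribed away from each other from 1 shared region. Its element begins 89 bases before the RefSeq start of Hspe1 and 144 before that of Hspd1 and is 18 bases long, the longest found among the members. These 2 genes did not pass the test with alpha-amanitin, whereas Hsph1, with a run of 3 units past its start, was 19.6-fold lower. In Hspa1a, Hspa1b and Hspb1 the cores begin 97 to 117 bases before the start.

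Hspa1a and Hspa1b have nearly the same promoter. Of the 250 bases before the start, 247 were the same letters (98.8%). The 120 bases next to the start are shown for both because the genes moved alike, with the core in capitals. They differ in 1 letter of 120.
Hspa1a, chr17:34972157-34972276, minus strand: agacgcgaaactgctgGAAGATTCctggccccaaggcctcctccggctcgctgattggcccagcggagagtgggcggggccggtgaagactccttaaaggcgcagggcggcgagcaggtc
Hspa1b, chr17:34959239-34959358, minus strand: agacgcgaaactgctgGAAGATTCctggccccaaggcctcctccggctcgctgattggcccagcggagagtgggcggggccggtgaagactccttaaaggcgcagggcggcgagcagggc

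Promoter motifs of general use were also counted. A TATAAA was in 5.33% of member windows beside 13.6% of all, and a CCAAT on either strand in 37.3% beside 37.4%. The element of the unfolded protein response of the endoplasmic reticulum, CCAAT and CCACG parted by 9 bases, was found in 0.119% of all windows and in 1 of 75 member windows (1.33%). That window belongs to Dnajc3, an endoplasmic reticulum J protein that did not pass the test (log2 -0.44, adjusted p = 0.481). Its 30 bases are shown beside those of Hspa5, the gene of BiP, which fell (log2 -3.07, adjusted p = 5.03e-05), with both parts in capitals.
Dnajc3, chr14:118937821-118937850, plus strand: ccacaaCCAATcagcgccaaCCACGacccg
Hspa5, chr2:34772019-34772048, plus strand: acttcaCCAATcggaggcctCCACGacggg

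Genes that work with the members were counted as lists chosen with earlier results of these data known, and their counts stand beside the 25.1% lower and 4.31% higher of all genes tested. Of 4 tested genes of the heat shock factor list (Hsf1, Hsf2, Hsf5 and Hsbp1, the last for a factor-binding protein), Hsf2 fell. Hsf1, which encodes the factor named above, was at 108, 94.2 and 93.2 FPKM in the wild type and at 138 and 142 with alpha-amanitin, above every wild-type library without passing the test (log2 0.50, SE 0.21, adjusted p = 0.0943). Of 26 cochaperones of HSP90 and HSP70, 6 fell (Stip1, Fkbp4, Ppid, Stub1, Sugt1 and Sgtb) and Ppp5c rose, a share of falls near that of all genes. Stip1, which encodes HOP and links HSP70 to HSP90, went from 28.3, 42.4 and 39.6 FPKM to 7.58 and 2.47 (log2 -2.77, SE 0.41, adjusted p = 0.000571).

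The BAG family holds exchange factors of HSP70, and prefoldin hands clients to the cytosolic chaperonin. No difference between these short lists and other genes was tested. Bag1, Bag3 and Bag5 of 6 BAG genes fell, and Bag3 went from 27.3, 37.1 and 28.9 FPKM to 0.569 and 0.504 (log2 -4.37, SE 0.31, adjusted p = 6.26e-06). Pfdn2, Pfdn6 and Vbp1 of 5 tested prefoldin genes fell, with a list median of -2.58. Of 7 tested organelle relatives, Hspa5, Hsp90b1 and Hyou1 of the endoplasmic reticulum fell, and none rose. Hspa5 was at 81.3, 157 and 128 FPKM in the wild type and at 12.1 and 14.3 with alpha-amanitin. No gene of these 5 lists was called in the other 2 comparisons.

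The comparison of Kdm5a+b with mismatch control morpholinos, for which the injections were made, gave no called member, beside 0% of all genes in either direction (limma). At an unadjusted p under 0.05 there was 1 member of 56, beside 3.15% of all genes tested, and the median log2 difference was 0.06 beside 0.00. The exception was Dnajc11, a J protein of the mitochondrial membrane. It was at 20.3 and 13.7 FPKM after targeting injection, at 6.79 and 2.51 after mismatch injection and at 6.12, 15.9 and 13.1 in the wild type. The groups of injected embryos did not overlap, but the targeting pair reached into the wild-type range (log2 1.76, SE 0.55, adjusted p = 1, limma). With 2 libraries against 2, the smallest two-sided p of an exact permutation test on a single gene is 0.333.

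The 4 members next in order of p were Dnajc13, Dnajb5, Dnajb1 and Dnajc28, all with adjusted p = 1. Dnajb1 was at 19.5 and 15.6 FPKM against 11.2 and 7.55 (log2 0.86, SE 0.43), the targeting pair above both control libraries. Dnajb5 was at 0.469 and 0.536 against 3.77 and 1.57 (log2 -1.22, SE 0.61). Of the other heat-inducible members, Hspa1a was at 8.13 and 6.18 FPKM against 5.5 and 4.74, also with the targeting pair above both control libraries, and did not pass the test (log2 0.41, SE 0.49). Of the 56 members tested, 8 were separated upward in this way and 8 downward. The share of all genes so separated is not given here, so no result about the members is read from these counts. Such a separation by itself has a two-sided p of 0.333 in an exact permutation test. Hspa1b, at 4.12 and 1.37 against 3.51 and 1.91, and Hsph1, at 55.4 and 54.3 against 65 and 37.7, overlapped between the groups.

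Injection itself is a handling step, and heat shock genes are known to respond to stress, so the 4 injected libraries were set against the 3 of the wild type. These share the wild-type libraries with the alpha-amanitin comparison. No member was called, beside 0% of all genes (limma), and 5 members had an unadjusted p under 0.05, beside 6.87% of all genes tested. Dnajc12, a J protein linked to the folding of amino acid hydroxylases, was at 2.39 and 1.01 FPKM after mismatch injection and at 1.51 and 1.91 after targeting injection, below the 3.43 to 9.34 of all wild-type libraries (log2 -1.52, SE 0.46, adjusted p = 0.633, limma). Dnajb5 was also below the wild type in all 4 (log2 -1.40, SE 0.46, adjusted p = 0.633).

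The other 3 pointed upward. Dnajb6, a suppressor of protein aggregates, was at 20 to 29.6 FPKM in the injected libraries and at 13, 19.3 and 15.1 in the wild type (log2 0.64, SE 0.29, adjusted p = 0.725). Dnajc28 was at 2.5 and 4.24 FPKM after mismatch injection, 2.33 and 0.65 after targeting injection and 0.309 to 0.677 in the wild type (log2 1.10, SE 0.39, adjusted p = 0.638). Dnajc13 overlapped (log2 0.87, SE 0.35, adjusted p = 0.69). Of the heat-inducible genes, Hspa1a, Hspa1b, Hsph1, Hspb1 and Dnajb1 overlapped between injected and wild-type libraries and did not pass the test.

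The spread within groups limits these comparisons. Over members with a group mean of 5 FPKM or more, the median coefficient of variation was 38.2% in the wild type (31 members), 23.6% after alpha-amanitin (20), 25.1% after mismatch injection (31) and 15.4% after targeting injection (34). Over all genes at that level it was 31.7%, 24.3%, 22.3% and 18.9%. Wild-type replicate 2 was highest of its group for both HSP90 genes, Hsph1, Dnajb11 and Dnajc21.

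The 15 members that did not pass the filter were Dnajb7, Dnajb8, Dnajc6, Dnajc16, Dnajc17, Dnajc19, Dnajc22, Dnajc24, Dnajc27, Hspa1l, Hspb2, Hspb3, Hspb7, Hspb8 and Hspb9. Dnajb8, Hspb2 and Hspb3 were listed at 0 in all 9 libraries, and 9 members stayed under 1 FPKM in each. Of these, Dnajb7, Dnajb8 and Hspa1l are best known from the testis, and Hspb2, Hspb3 and Hspb7 from muscle. Hspb8, a small heat shock protein that acts with BAG3, stood at 9.75 FPKM in alpha-amanitin replicate 1 and at 0.406 or less in the other 8 libraries. Hspb9, a testis gene, stood at 2.73 FPKM in wild-type replicate 3 and was listed at 0 elsewhere. Each of these rests on 1 library.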

How the data were processed

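The authors deposited, per the file headers, 1 Cufflinks-style table per library with the FPKM of 32287 genes, its lower and upper bounds and a status. No member had a failed status, but Dnajb3, which passed the filter, was marked as low data in all 9 libraries. Per the submitters' processing notes, without roles, BWA, Picard, Cufflinks, Trimmomatic, Bismark 12.5 and SAMtools were used in the series and the build was mm10. Which aligner, strand setting and annotation were applied is not given in the sources used here. Per the labels' protocols, RNA was taken with an RNeasy Micro kit and libraries followed the TruSeq procedure.

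From these FPKM, log2(FPKM + 1) was fitted with limma 3.58.1 (R 4.3.3) over 13137 genes that reached 1 FPKM in 2 or more of 9 libraries. Group was the only term, with 5 residual degrees of freedom, trended eBayes and Benjamini-Hochberg adjustment at 0.05. The script was tested on simulated data. Alternatives were other pseudocounts (0.1), filters (mean of 5 FPKM, or none), TPM or quantile scaling, a replicate block, other variance settings, another reference and libraries left out.

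Members and lists were chosen with earlier results of these data known. Named with values were 10 textbook members, members called, the 5 with the smallest p in the injection comparisons, the highest of each role and the 5 highest of each group, and in addition members just over the threshold, single-library values and copies, chosen after their values were seen. Gene models are GENCODE M21 and promoters RefSeq, with 58 of 71 members matched. Python 3.11.15 made counts and figures.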

Additional observations from a re-analysis of the deposited data

How the results depend on the processing

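With alpha-amanitin, 17 members were lower and 2 higher. Without a filter, with 68 members tested, the counts were 11 and 1, and after quantile scaling 8 and 7. The mean filter of 5 FPKM left 31 members to test. Of these 11 were lower and 3 higher, and no call tested there was lost. Leaving out 1 library gave 11 (without alpha-amanitin replicate 1) to 16 lower and 0 (without alpha-amanitin replicate 2) to 2 higher. Only 1 was higher with the replicate block, with the compared groups alone and with array weights. Of the 19 calls, 7 (Dnajb9, Dnajb11, Hspa2, Hsph1, Hsp90ab1, Hspa1a and Hspb1) were kept under every alternative in which they were tested (Hspa1a was not under the mean filter of 5 FPKM), and 12 were lost under at least 1. Quantile scaling lost the calls of Dnajb5, Dnajb14, Dnajc1, Dnajc4, Dnajc12, Hspa1b, Hspa4, Hspa8 and Hspbp1. Without a filter those of Dnajb5, Dnajc1, Dnajc4, Dnajc13, Hsp90aa1, Hspa8 and Hspbp1 were lost. The replicate block lost Dnajb4, Dnajc1, Dnajc13, Hspa8 and Hspbp1, and array weights lost Dnajc4, Dnajc13, Hspa8 and Hspbp1. With the compared groups alone Dnajb4, Dnajb5, Dnajc1, Dnajc4 and Hspa8 were lost. The log2 differences of 3 members without a call changed sign. Dnaja1 was at 0.17 after quantile scaling. Hspd1 was at 0.29 after quantile scaling, -0.47 to 0.05 with 1 library left out (highest without wild-type replicate 2) and 0.10 against the injected libraries. Hspe1 was at 0.91 after quantile scaling, -0.67 to 0.42 with 1 library left out (without alpha-amanitin replicate 2 and 1) and 0.11 against the injected libraries. Causes were not tested. The 0 calls of the injection comparisons were 0 under every alternative.

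Deviations of same-numbered libraries correlated at -0.05 to 0.04 over the genes tested, so no pairing by replicate number was seen. A low correlation cannot exclude pairing, on which the labels are silent. In groups of 2 libraries the deviations mirror each other, so replicates 1 and 2 are not separate checks there. With the replicate block, 14 members were lower and 1 higher with alpha-amanitin, and 0 in the other comparisons. That 1 was Dnajc5b (adjusted p = 0.0369, limma), and both rises reported were lost (Dnajb4 0.106, Dnajc13 0.0944). Without the trend in eBayes they were lost too (0.0784 and 0.0661), and the 2 members higher were Dnajc5b and Hspb11. Read depth is unknown, so the precision of members under about 1 FPKM cannot be given.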
